A study of Mus musculus with 6 samples.

Results

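The genes described here are the secreted Wnt ligands, their Frizzled and LRP receptors, the R-spondins with their Lgr receptors, and the secreted antagonists of the Wnt pathway. They were chosen by symbol (Wnt, Fzd, Lrp5 and Lrp6, Rspo, Lgr4 to Lgr6, Sfrp, Frzb, Wif1 and Dkk), with no use of their measured levels, which gave 48 of the 32531 gene features in each library. The libraries come from the hypothalamus of untreated adult mice of the line Lhx5-TRAP DT154, which carries EGFP fused to the ribosomal protein L10a under control of Lhx5, a LIM-homeodomain transcription factor gene. In translating ribosome affinity purification (TRAP), antibodies against EGFP pull down tagged ribosomes with the RNA they hold. The 3 immunopurified (IP) libraries hold that RNA, and the 3 unbound libraries hold RNA of the fraction left behind, which the sample titles call input. Both groups come from the same transgenic line, and no library of a line without the transgene was analysed here. The sources used here state neither the number and sex of the animals nor any pooling, so p-values measure the spread between these libraries, which may be technical.

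Wnt proteins are lipid-modified signals that bind a Frizzled receptor together with the co-receptor Lrp5 or Lrp6, which stabilises beta-catenin and lets it act with TCF and LEF factors on target genes. R-spondins strengthen the signal: bound to Lgr receptors they hold back Znrf3 and Rnf43, the ubiquitin ligases that remove Frizzled proteins from the cell surface. Secreted Frizzled-related proteins and Wif1 bind Wnt ligands, and some Dickkopf proteins block the LRP co-receptors. In the zebrafish embryo Lhx5 is known to promote forebrain formation through secreted Frizzled-related proteins. Of the mouse genes of that family Sfrp2 was higher in IP, Sfrp5 was lower, and Sfrp1, Sfrp4 and Frzb did not pass (below). That link was not tested here.

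Gene counts per library lay between 32471045 and 46293837. Levels are in CPM, the counts scaled to a common library size after TMM scaling, which sets libraries to one scale using the bulk of genes, and a mean is given with its SD over 3 libraries. The level of Lhx5 averaged 61.8 ± 7.59 CPM (IP) against 3.39 ± 2.51 CPM (unbound). Unbound replicate 3 stood apart from its label. A list of 10 hypothalamic genes was made with its values known. It summed to 8.42 CPM there, to 191 and 114 CPM in unbound replicates 1 and 2 and to 212 to 245 CPM in IP. Different genes carried these sums: Avp, Oxt, Hcrt and Pmch were highest in unbound replicates 1 and 2, and Trh, Sim1 and Nkx2-1 in IP. The sums therefore do not compare IP with unbound RNA for the same genes. IP replicate 3 also differed within its group, though its sum did not show it. Avp held 5.25, 6.53 and 0.778 CPM in IP replicates 1 to 3, and Trh 92.0, 115 and 39.8 CPM. Nkx2-1 went the other way, at 62.2, 38.5 and 93.5 CPM, and Pomc held 3.66, 2.44 and 3.47 CPM. Some members, such as Agrp and Pomc, differed less between unbound libraries. Agrp held 0.802, 0.552 and 0.456 CPM in unbound replicates 1 to 3, and Pomc 6.04, 4.53 and 2.69 CPM. For unbound replicate 3, striatal markers summed to 166 CPM and choroid plexus markers to 304 CPM. Replicates 1 and 2 of that group held 2402 and 1927 CPM, and 2615 and 2848 CPM, in that order. Midbrain and hindbrain markers summed to 333 CPM in unbound replicate 3 and to 48.8 and 34.6 CPM in the others. The groups also differed in how reads were sorted: 43.8% to 45.0% of reads aligned to several places in IP and 31.8% to 32.9% in unbound libraries, 7.57% to 7.998% and 12.53% to 13.5% lay in no feature, and 1.58% to 1.64% and 7.08% to 9.02% were ambiguous between genes. The part of these shares in the differences below, those of genes with an antisense overlap included, was not tested.

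The R-spondin genes Rspo1 and Rspo3 and the antagonist gene Sfrp2 were higher in IP RNA, by 3.31-fold, 4.54-fold and 4.96-fold. Both LRP co-receptor genes, 4 Frizzled genes, 5 Wnt ligand genes and the antagonist genes Sfrp5 and Wif1 were lower. Of the 48 genes 42 passed the filter on low counts, and of these 3 rose and 13 fell in IP (edgeR's quasi-likelihood test, Benjamini-Hochberg adjusted p under 0.05 over 16991 genes). Over all genes tested 21.1% were called higher, 23.2% lower and 44.3% in either direction. The median log2 difference of the 42 genes was -0.78, and that of all genes tested was -0.01. Wnt6, unread in IP, lies below the median of the 42 at its bound of -2.19 too, so using the bound could not move that median. Groups did not overlap for 4 genes with IP above, where all genes give 27.1%, and for 17 genes with IP below, where all genes give 28.7% (55.9% in either direction). Of the 42 genes 4 passed the filter through the unbound libraries alone (Wnt6, Wnt16, Fzd10 and Wif1), so these had to be lower in IP to be tested.

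**Figure D1:**
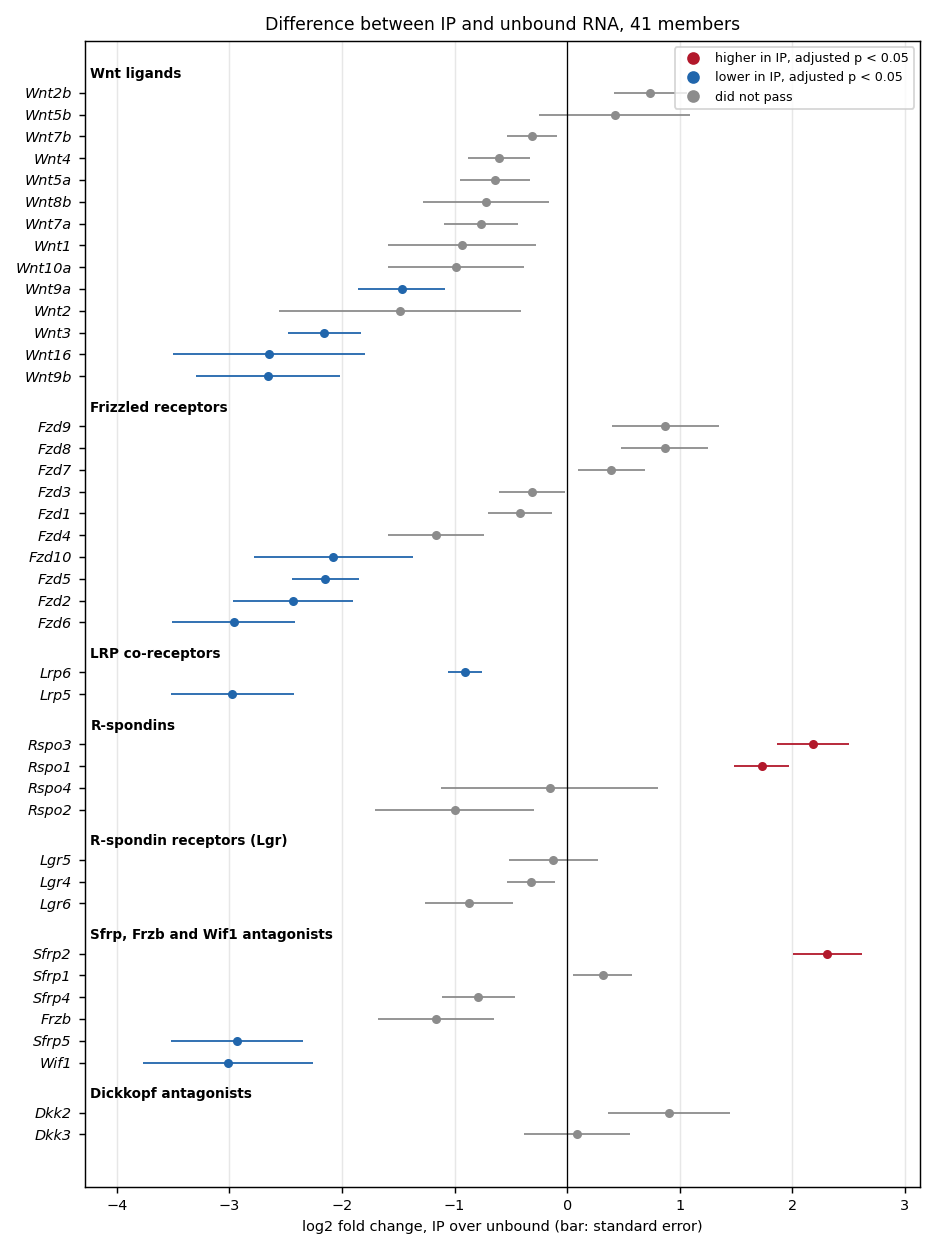
Log2 fold change of IP over unbound RNA for 41 of the 42 tested genes, by role, with the standard error as a bar (Wnt6, with 0 counts in IP, is left out). Red and blue mark genes with an adjusted p under 0.05. The 3 red genes are Rspo1, Rspo3 and Sfrp2, and both LRP genes and 4 of the 10 Frizzled genes are blue.

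Because Rspo1 and Sfrp2 rose while Sfrp5, of the same family as Sfrp2, and Fzd5 fell, the 250 bases before the start of each are printed here from RefSeq (GRCm38.p6, the assembly also called mm10). Capitals mark GGGCGG or its complement CCGCCC, a GC box. RefSeq windows were at hand for 31 of the 48 genes (34 windows), and Rspo3 was not among them. The windows are chr4:124986180-124986429, plus strand for Rspo1, chr3:83766071-83766320, plus strand for Sfrp2, chr19:42202253-42202502, minus strand for Sfrp5 and chr1:64737751-64738000, minus strand for Fzd5.
Rspo1: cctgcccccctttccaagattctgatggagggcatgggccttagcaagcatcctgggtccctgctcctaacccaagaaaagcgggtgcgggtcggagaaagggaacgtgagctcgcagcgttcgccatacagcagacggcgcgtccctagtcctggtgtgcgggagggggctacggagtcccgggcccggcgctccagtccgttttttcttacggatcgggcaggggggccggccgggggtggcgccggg
Sfrp2: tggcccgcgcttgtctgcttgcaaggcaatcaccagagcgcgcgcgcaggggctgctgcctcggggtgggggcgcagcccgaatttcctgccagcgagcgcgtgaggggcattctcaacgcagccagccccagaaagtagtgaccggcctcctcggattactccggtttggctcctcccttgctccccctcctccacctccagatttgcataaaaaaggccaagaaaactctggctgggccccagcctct
Sfrp5: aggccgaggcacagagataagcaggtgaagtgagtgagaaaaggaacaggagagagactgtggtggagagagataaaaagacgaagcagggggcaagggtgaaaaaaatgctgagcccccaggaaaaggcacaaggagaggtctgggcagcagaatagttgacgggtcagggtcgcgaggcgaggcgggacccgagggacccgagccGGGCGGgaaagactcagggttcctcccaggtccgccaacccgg
Fzd5: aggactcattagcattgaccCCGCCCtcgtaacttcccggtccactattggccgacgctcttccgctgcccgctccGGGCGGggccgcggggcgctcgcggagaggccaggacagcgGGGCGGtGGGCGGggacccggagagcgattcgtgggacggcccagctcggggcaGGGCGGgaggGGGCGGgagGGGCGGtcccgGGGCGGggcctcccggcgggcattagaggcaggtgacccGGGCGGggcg

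These windows held 66.8% G and C for Rspo1, 63.6% for Sfrp2, 59.6% for Sfrp5 and 76.4% for Fzd5, against a median of 52.4% over 32851 windows. The GC box was matched 0 times for Rspo1, 0 times for Sfrp2, 1 time for Sfrp5 and 9 times for Fzd5. These windows were picked by their calls, so the counts do not compare genes that rose with genes that fell. Other windows varied: Wnt16 (0) and Wnt6 (6) fell, while Lgr4 (0) and Wnt4 (8) did not pass. With the first 50 bases of each gene added, GGGCGG on either strand was in 25 of the 34 windows of these genes and in 35.7% of all windows. The TCF and LEF motif CTTTGAT, searched on both strands, was in 2 of the 34 (Wnt5b and Wnt11) and in 3.73% of all. TAATTA, a homeodomain motif that is its own complement, was in 1 (Wnt8b) and in 5.29% of all. The TATA motif TATAAA, on both strands, was in 5 of the 34 and in 13.6% of all. The GC box and TATA motifs were added after results were seen, and a match is a description of letters and not a site.

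Rspo1 encodes a secreted R-spondin (mm10, GENCODE, plus strand, chr4:124986430-125009099). Its level was 28.5, 25.1 and 18.5 CPM (IP) against 7.57, 8.95 and 5.28 CPM (unbound) in replicates 1 to 3, the order used throughout. The IP libraries were all above the unbound ones, and the lowest level of each group was in replicate 3. The log2 difference was 1.73 ± 0.25 (SE; adjusted p = 0.000930, edgeR). Rspo3, a further R-spondin gene, lies at chr10:29452416-29535867 on the minus strand, where exons of the antisense gene Gm48159 overlap it. It held 29.4, 34.4 and 16.1 CPM (IP) against 6.12, 7.35 and 4.15 CPM (unbound). The groups were again apart, with replicate 3 lowest in both, and the log2 difference was 2.18 ± 0.32 (adjusted p = 0.00109, edgeR). Rspo2 and Rspo4, the other family members, did not pass, at -1.001 and -0.16. Rspo2 held 1.09, 0.900 and 0.289 CPM (IP) against 2.18, 1.98 and 0.408 CPM (unbound), with replicate 3 low in both groups. Rspo4 had 36, 11 and 27 counts (IP) against 58, 19 and 1 (unbound), so that the unbound libraries spanned the IP ones.

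Sfrp2 encodes a secreted Frizzled-related protein and lies at chr3:83766321-83774316 on the plus strand, with the antisense gene Gm26771 over its exons. It held 21.1, 23.7 and 13.8 CPM (IP) against 3.94, 2.59 and 5.25 CPM (unbound). The groups did not overlap, and its lowest IP and highest unbound level were both in replicate 3. The log2 difference was 2.31 ± 0.31 (adjusted p = 0.000686, edgeR). Same-numbered libraries differed by 5.37-fold, 9.17-fold and 2.63-fold for Sfrp2, by 4.80-fold, 4.68-fold and 3.89-fold for Rspo3, and by 3.76-fold, 2.80-fold and 3.51-fold for Rspo1. These genes passed in each of the 17 alternative fits, with log2 values of 1.79 to 2.76 for Sfrp2, 1.63 to 2.46 for Rspo3 and 1.18 to 1.91 for Rspo1.

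**Figure D2:**
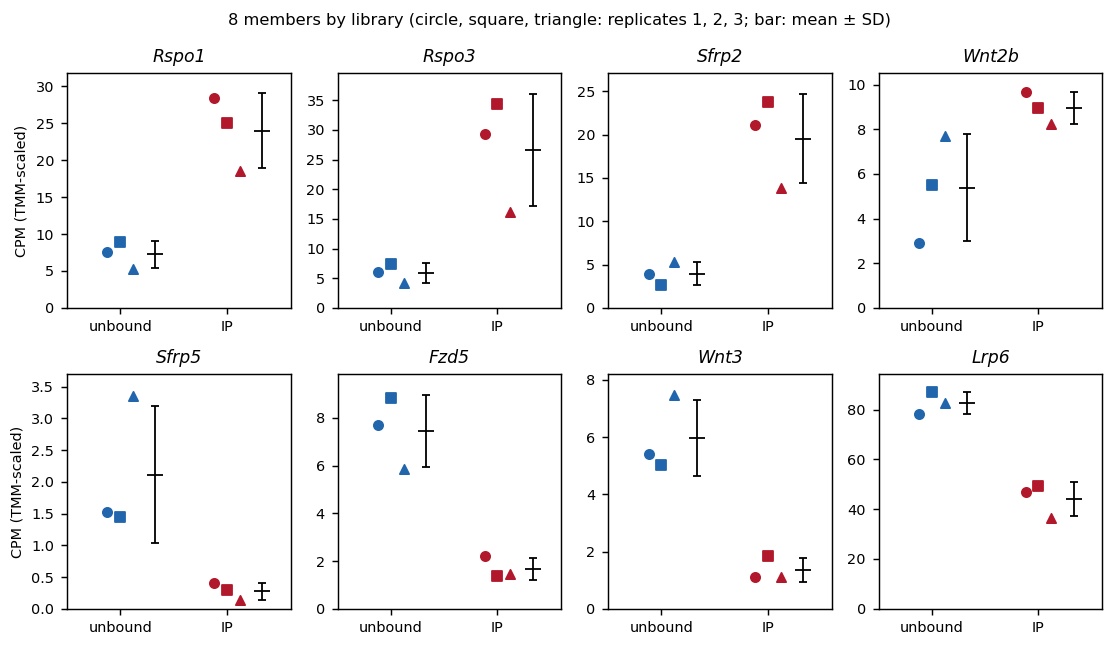
Level in CPM after TMM scaling of 8 genes in each library, with unbound in blue, IP in red and the mean ± SD beside the points. Rspo1, Rspo3 and Sfrp2 lie higher in every IP library, Wnt2b approaches the IP level in unbound replicate 3, and Sfrp5, Fzd5, Wnt3 and Lrp6 lie lower in every IP library.

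Among the 15 tested Wnt ligand genes 0 rose (21.1% of all genes) and 5 fell in IP (23.2% of all genes). The other 10 did not pass. Of the 5, Wnt6 and Wnt16 passed the filter through the unbound libraries alone and had to be lower to be tested. Wnt3, a ligand of the beta-catenin branch, held 1.09, 1.83 and 1.11 CPM (IP) against 5.41, 5.03 and 7.48 CPM (unbound). The IP libraries were all lower, with a log2 difference of -2.16 ± 0.33 (adjusted p = 0.00119, edgeR). Wnt9b, next to Wnt3 on chromosome 11, held 0.452, 0.289 and 0.0667 CPM (IP) against 1.98, 1.63 and 1.51 CPM (unbound), a difference of -2.66 (adjusted p = 0.00968, edgeR). It was lower in all IP libraries, and without IP replicate 1 the value was -3.29. Wnt9a, the closest relative of Wnt9b, held 1.35, 1.83 and 1.76 CPM (IP) against 4.94, 6.31 and 2.45 CPM (unbound), a difference of -1.47 (adjusted p = 0.0143, edgeR). Unbound replicate 3 was the lowest of its group. The call for Wnt9a was lost without IP replicate 1 (-1.33, adjusted p = 0.0585, edgeR), without unbound replicate 1 (-1.39, adjusted p = 0.0509, edgeR) and without unbound replicate 2 (-1.16, adjusted p = 0.0676, edgeR).

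Wnt6 had 0, 0 and 0 counts (IP) against 13, 9 and 20 (unbound), at least 4.55-fold lower in IP against a floor of 3 counts per IP library. Wnt16 had 6, 5 and 2 counts (IP) against 18, 51 and 11 (unbound), and the groups did not overlap. Its difference of -2.65 (adjusted p = 0.0323, edgeR) was -1.62 without unbound replicate 2, where it was highest. Leaving out any 1 library other than unbound replicate 3 ended the call, with an adjusted p of 0.0501 to 0.190 in edgeR.

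Wnt2b was the ligand with the largest positive difference among those tested, at 9.67, 8.97 and 8.25 CPM (IP) against 2.91, 5.52 and 7.70 CPM (unbound). All IP libraries lay above all unbound ones, but the log2 difference of 0.74 ± 0.32 did not pass (adjusted p = 0.0951, edgeR). Without unbound replicate 3, the highest of its group, it rose by 1.08 (adjusted p = 0.0123, edgeR). Wnt7a held 2.83, 3.76 and 4.25 CPM (IP) against 8.90, 5.46 and 4.05 CPM (unbound), overlapping through unbound replicate 3. It went from -0.77 (adjusted p = 0.0885, edgeR) to -0.996 without that library (adjusted p = 0.0191, edgeR). Wnt5a, a ligand known for signalling outside the beta-catenin branch, held 6.11, 5.72 and 7.91 CPM (IP) against 8.15, 7.15 and 15.5 CPM (unbound), with the highest level in unbound replicate 3 (-0.64, did not pass). Wnt4 (-0.60), Wnt7b (-0.31), Wnt8b (-0.72), Wnt1 (-0.93), Wnt10a (-0.99) and Wnt5b (0.42) did not pass either. Among these 6, Wnt4 and Wnt7b had groups that did not overlap, with IP below. With scaling on pan-neuronal markers Wnt4, Wnt5a, Wnt7a and Wnt7b passed as lower, where 7194 of all 16991 genes tested were lower.

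Wnt2 had 21, 51 and 2 counts (IP) against 122, 87 and 17 (unbound), with replicate 3 lowest in both groups. Its difference of -1.49 did not pass (adjusted p = 0.292, edgeR), and it fell by 1.91 once replicates were blocked by number (adjusted p = 0.0447, edgeR). The remaining 4 ligand genes were too low to test with all 6 libraries. Wnt3a had 0 counts in each library, Wnt8a had 5 in unbound replicate 1 and 0 elsewhere, and Wnt11 had 0 to 7. Wnt10b had 0, 0 and 4 counts (IP) against 6, 12 and 16 (unbound), and its groups did not overlap. Without IP replicate 3, the only IP library with reads of it, Wnt10b passed the filter through the unbound libraries alone. It then had to be lower to be tested, so its call (adjusted p = 0.0207, edgeR) is no evidence of a fall. With no count filter Wnt10b did not pass (adjusted p = 0.0820, edgeR).

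**Figure D3:**
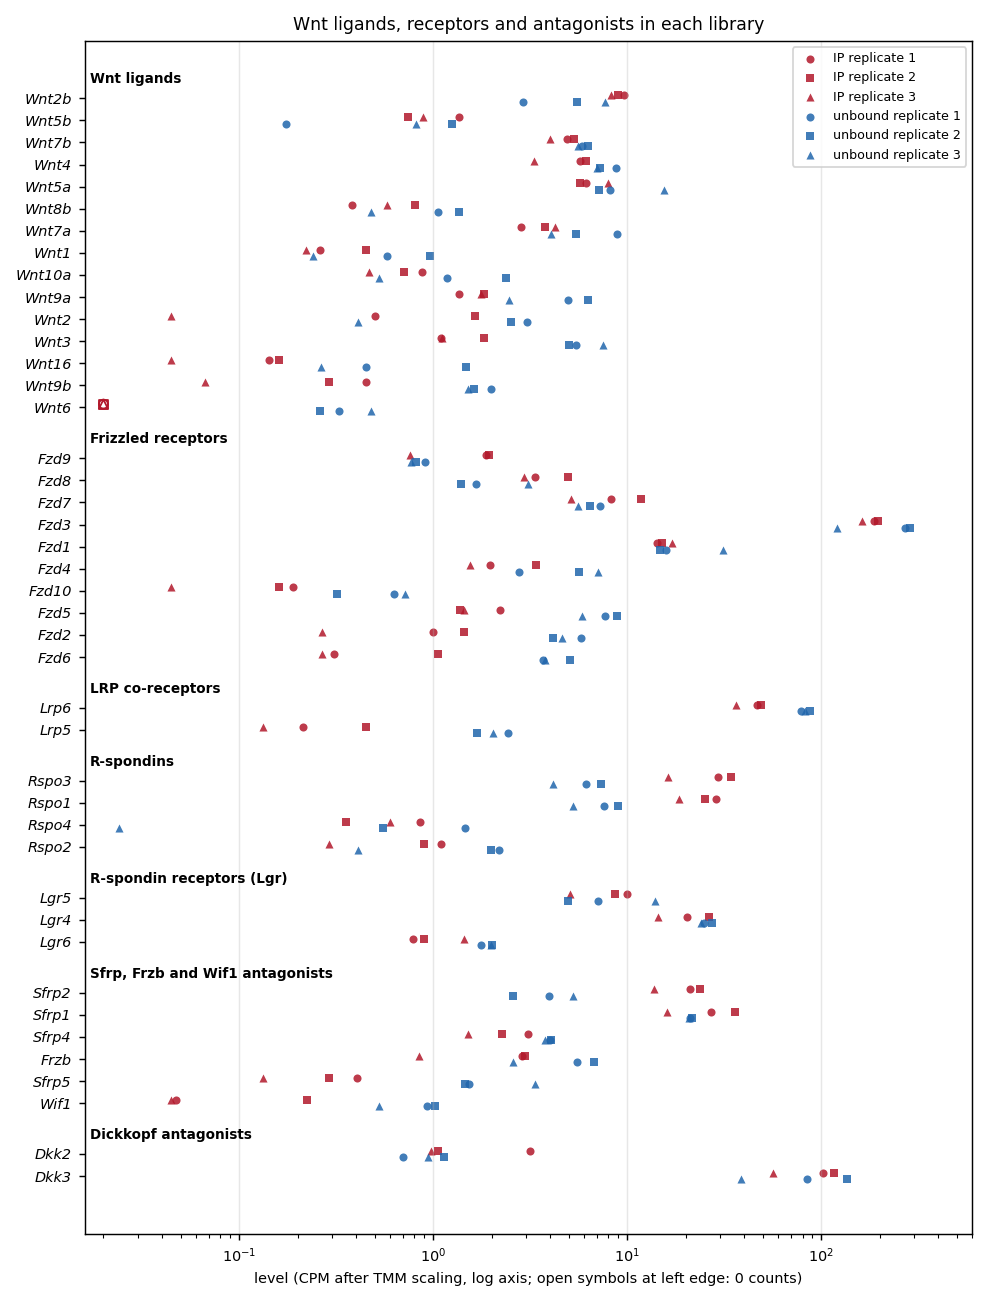
Level in each library (CPM after TMM scaling, log axis) of the 42 tested genes by role. IP libraries are red and unbound libraries blue, shapes mark the replicate, and the open red symbols of Wnt6 stand for 0 counts. The axis is not scaled by gene length, so levels compare between libraries and not between genes. Replicate 3 lies lowest in both groups for Rspo1, Rspo2, Rspo3, Frzb, Wnt2 and Dkk3.

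Of 10 Frizzled genes 0 rose (21.1% of all genes) and 4 fell in IP (23.2% of all genes). Fzd10 passed the filter through the unbound libraries alone, so it had to be lower to be tested. Fzd5 held 2.21, 1.38 and 1.44 CPM (IP) against 7.72, 8.84 and 5.85 CPM (unbound), and exons of the antisense gene Gm38058 overlap it. The IP libraries were all lower, with a difference of -2.15 ± 0.30 (adjusted p = 0.000797, edgeR). Fzd2 held 0.998, 1.45 and 0.267 CPM (IP) against 5.79, 4.13 and 4.61 CPM (unbound), a difference of -2.44 (adjusted p = 0.00621, edgeR) with groups apart. Fzd6, overlapped by the antisense gene Gm26704, held 0.309, 1.06 and 0.267 CPM (IP) against 3.66, 5.06 and 3.77 CPM (unbound). Its difference was -2.96 (adjusted p = 0.00290, edgeR), and -3.83 without IP replicate 2, its highest IP library. Fzd10 had 8, 5 and 2 counts (IP) against 25, 11 and 30 (unbound), a difference of -2.08 (adjusted p = 0.0396, edgeR). Its call ended when any 1 library was dropped (-2.46 to -1.61, adjusted p = 0.0564 to 0.124, edgeR) and with replicates blocked by number (-2.11, adjusted p = 0.0797, edgeR).

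Fzd3, which guides growing axons, was the most abundant Frizzled gene by length and held 187, 195 and 162 CPM (IP) against 269, 287 and 120 CPM (unbound). The groups overlapped through unbound replicate 3 alone, and the difference went from -0.31 (adjusted p = 0.416, edgeR) to -0.62 without that library (adjusted p = 0.00375, edgeR). Fzd8 held 3.33, 4.95 and 2.93 CPM (IP) against 1.65, 1.40 and 3.07 CPM (unbound), with the same library as the exception. It went from 0.87 (adjusted p = 0.0991, edgeR) to 1.28 without it (adjusted p = 0.0147, edgeR). Fzd1 (-0.42), Fzd7 (0.39) and Fzd9 (0.87) did not pass. Fzd9 passed without IP replicate 3 (1.22, adjusted p = 0.0481, edgeR), and Fzd1 under pan-neuronal scaling (-0.92, adjusted p = 0.0174, edgeR). Fzd1 reached 31.3 CPM in unbound replicate 3, against 14.3 to 17.0 CPM in the other 5 libraries. Fzd7 held 8.22, 11.8 and 5.16 CPM (IP) against 7.22, 6.40 and 5.54 CPM (unbound) and Fzd9 1.88, 1.93 and 0.756 CPM (IP) against 0.902, 0.814 and 0.768 CPM (unbound), both with IP replicate 3 lowest of all. Fzd4, the receptor through which norrin acts on vessels, held 1.97, 3.38 and 1.56 CPM (IP) against 2.76, 5.61 and 7.05 CPM (unbound). Its groups overlapped, and the difference of -1.17 missed the threshold (adjusted p = 0.0507, edgeR) and passed in 9 of the 17 alternative fits.

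Both LRP co-receptor genes fell in IP. Lrp6 held 46.8, 49.1 and 36.3 CPM (IP) against 78.4, 87.2 and 82.5 CPM (unbound). The groups were apart, with a difference of -0.91 ± 0.15 (adjusted p = 0.00178, edgeR). Lrp5 had 9, 14 and 6 counts (IP) against 97, 58 and 85 (unbound), a difference of -2.97 ± 0.54 (adjusted p = 0.00276, edgeR). Per kilobase of exon, Lrp6 made up 99.2% ± 0.405 of the summed LRP level in IP and 96.6% ± 0.766 in the unbound fraction (SD, n = 3).

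The Lgr receptors of the R-spondins did not pass in the main test. Under pan-neuronal scaling Lgr4 and Lgr6 passed as lower, where 7194 of all 16991 genes tested were lower. Lgr4 held 20.2, 26.3 and 14.4 CPM (IP) against 24.7, 27.3 and 24.1 CPM (unbound), and the groups overlapped (-0.32). Lgr5 held 9.96, 8.68 and 5.09 CPM (IP) against 7.04, 4.94 and 13.8 CPM (unbound), with its highest level in unbound replicate 3. The sign of its difference turned with that library, from -0.12 with it to 0.39 without it (adjusted p = 0.317, edgeR). Lgr6 held 0.784, 0.900 and 1.44 CPM (IP) against 1.75, 2.01 and 1.99 CPM (unbound), lower in every IP library, but did not pass (-0.87, adjusted p = 0.101, edgeR).

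Among the 6 tested antagonist genes that bind Wnt ligands, Sfrp2 rose, Sfrp5 and Wif1 fell, and Sfrp1, Sfrp4 and Frzb did not pass. Wif1 passed the filter through the unbound libraries alone, so it had to be lower to be tested. Sfrp5 had 17, 9 and 6 counts (IP) against 61, 50 and 140 (unbound). The groups did not overlap, and the difference was -2.93 ± 0.59 (adjusted p = 0.00414, edgeR). It was -2.44 without unbound replicate 3 and -2.10 without replicate 3 of both groups. Wif1, which encodes the Wnt inhibitory factor, had 2, 7 and 2 counts (IP) against 37, 35 and 22 (unbound), a difference of -3.01 (adjusted p = 0.0113, edgeR), and of -4.06 without IP replicate 2. Sfrp1 held 26.9, 36.0 and 16.0 CPM (IP) against 21.1, 21.5 and 20.8 CPM (unbound). Its IP libraries lay on both sides of the unbound ones, and the difference of 0.31 did not pass (adjusted p = 0.356, edgeR). It was -0.22 under pan-neuronal scaling. It passed without IP replicate 3 (0.60, adjusted p = 0.0271, edgeR) and without replicate 3 of both groups (0.54, adjusted p = 0.0214, edgeR).

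Frzb, also a secreted Frizzled-related protein gene, held 2.85, 2.96 and 0.845 CPM (IP) against 5.51, 6.77 and 2.59 CPM (unbound). Replicate 3 was lowest in both groups, and the difference of -1.16 did not pass (adjusted p = 0.0979, edgeR). It passed with replicates blocked by number (-1.24, adjusted p = 0.0128, edgeR) and without unbound replicate 3 (-1.49, adjusted p = 0.0213, edgeR). Sfrp4 held 3.07, 2.25 and 1.51 CPM (IP) against 3.99, 4.04 and 3.77 CPM (unbound), lower in each IP library, and its difference of -0.79 missed the threshold (adjusted p = 0.0756, edgeR). It passed in 4 of the 17 alternative fits (pan-neuronal scaling, DESeq2, limma-voom and without IP replicate 1). Dkk3, a divergent Dickkopf member, held 102, 117 and 56.02 CPM (IP) against 84.2, 135 and 38.5 CPM (unbound). Its spread within each group was wider than the difference of 0.089, whose sign turned under several settings. Dkk2 was at 3.14 CPM in IP replicate 1 and at 0.702 to 1.13 CPM in the other 5 libraries (0.90, did not pass). Dkk1 had 2 to 19 counts and Dkk4 0 or 1 in any library, and neither was tested.

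Levels were compared between genes only per kilobase of exon, with lengths from GENCODE, which may differ from the annotation the reads were counted on. In IP the order began with Dkk3 (27.2 ± 9.41 CPM per kilobase), Fzd3 (14.2 ± 1.35), Rspo1 (12.4 ± 2.61), Sfrp2 (9.08 ± 2.39), Rspo3 (8.62 ± 3.06) and Sfrp1 (6.01 ± 2.29), each SD over 3 libraries. The range of Dkk3 lay above that of Fzd3, and from Fzd3 down each of these ranges overlapped the next. In the unbound fraction the order began with Dkk3 (25.6 ± 14.4 CPM per kilobase), Fzd3 (17.6 ± 7.16), Lrp6 (6.05 ± 0.323), Fzd1 (4.92 ± 2.20) and Sfrp1 (4.83 ± 0.0801). Rspo1 was at place 7 there, Rspo3 at place 10 and Sfrp2 at place 12. Fzd3 lay above Lrp6 in every unbound library, while the ranges of Dkk3 and Fzd3 overlapped, as did those of Lrp6 and Fzd1, and of Fzd1 and Sfrp1.

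The R-spondin genes together summed to 21.4 ± 5.48 CPM per kilobase in IP and 6.23 ± 1.83 in the unbound fraction, and the Wnt ligand genes to 8.61 ± 0.944 and 14.0 ± 1.08. Rspo1 held 58.6% ± 5.21 of the R-spondin sum in IP and 60.9% ± 4.56 in the unbound fraction, with overlapping ranges. Sfrp2 held 55.7% ± 3.49 of the Sfrp, Frzb and Wif1 sum in IP and 17.1% ± 5.41 in the unbound fraction. Wnt2b held 24.9% ± 2.39 and 9.37% ± 4.80 of the ligand sum, and Wnt3 held 5.02% ± 1.07 and 14.1% ± 4.34. The groups do not overlap for the shares of Sfrp2, Wnt2b and Wnt3. These shares follow from the levels above and were not tested.

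**Figure D4:**
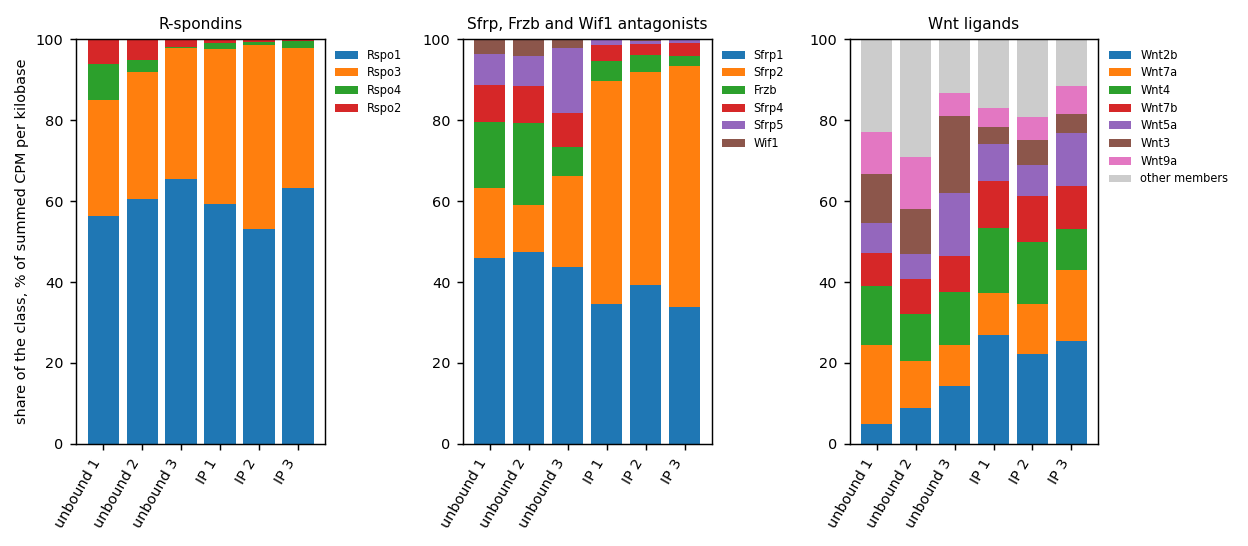
Share of each gene in the summed CPM per kilobase of its class, as a percentage, in each library (3 unbound, then 3 IP). Sfrp2 makes up 52.6% to 59.5% of its class in IP and 11.6% to 22.4% in unbound libraries, and Wnt2b 22.3% to 27.0% and 4.83% to 14.4% of the ligand sum.

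Replicate 3 was often the lowest library for these genes in both groups. IP replicate 3 held the lowest IP level for 31 of the 42 tested genes (73.8%) and for 35.4% of all genes tested. Unbound replicate 3 held the lowest unbound level for 24 of the 42 (57.1%) and for 32.0% of all genes. It lay more than 2-fold from the mean of the other unbound libraries for 16 of the 42 (38.1%), against 13.3% of all genes. It was low in that way for Rspo4, Wnt2, Rspo2, Wnt16, Wnt10a, Wnt1, Dkk3, Wnt8b, Frzb, Fzd3 and Wnt9a, and high for Lgr5, Sfrp5, Fzd1, Wnt5a and Fzd8. Without it, 5 of 42 tested genes rose (24.0% of all genes) and 15 fell (25.8% of all genes). Wnt2b and Fzd8 then rose and Frzb, Fzd3 and Wnt7a fell as well, while Fzd10 was lost.

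Marker lists of cell types and regions were followed beside the Wnt genes. All 10 astrocyte markers were lower in IP and summed to 59.8 to 109 CPM in IP and 600 to 867 CPM in the unbound fraction. All 10 oligodendrocyte markers were lower too, with sums of 231 to 443 CPM in IP and 3002 to 5495 CPM in the unbound fraction. Fibroblast and meningeal markers summed to 4.53 to 7.17 CPM in IP and 40.9 to 68.8 CPM in the unbound fraction, with 7 of 7 tested lower and 1 at 0 in every IP library. Endothelial and mural markers (7 of 10 tested lower) summed to 4.98 to 9.68 CPM in IP and 27.6 to 53.3 CPM in the unbound fraction. Microglial markers (9 of 10 lower) summed to 10.7 to 28.9 CPM in IP and 84.8 to 133 CPM in the unbound fraction, and ependymal and tanycyte markers (7 of 9 lower) to 18.7 to 30.1 CPM in IP and 113 to 165 CPM in the unbound fraction. Oligodendrocyte precursor markers (5 of 8 lower) summed to 127 to 184 CPM in IP and 304 to 449 CPM in the unbound fraction, and choroid plexus markers (3 of 7 lower) to 128 to 431 CPM in IP and 304 to 2848 CPM in the unbound fraction. Striatal markers (1 of 8 lower) summed to 285 to 562 CPM in IP and 166 to 2402 CPM in the unbound fraction, thalamic and habenular markers (5 of 8 lower, 1 higher) to 782 to 1015 CPM in IP and 695 to 1110 CPM in the unbound fraction, and midbrain and hindbrain markers (3 of 7 lower) to 21.9 to 24.0 CPM in IP and 34.6 to 333 CPM in the unbound fraction. Of 15 pan-neuronal markers 9 were higher and 1 lower, with sums of 19428 to 20728 CPM in IP and 13169 to 14607 CPM in the unbound fraction. The part of these cells in the falls of Wnt pathway genes was not tested. IP and unbound are fractions, so a difference between them gives neither the number of cells of a type nor the RNA per cell.

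Beyond the 48 genes, 71 other genes of the pathway were followed in 5 lists, of which 67 were tested. Of these 12 rose (21.1% of all genes) and 18 fell (23.2% of all genes), with a median of -0.08. Among 13 co-receptor, polarity and turnover genes 0 rose and 5 fell. Rnf43, a ligase that R-spondins hold back, fell from 3.64 ± 0.517 CPM in the unbound fraction to 0.559 ± 0.0533 CPM in IP (-2.70). Znrf3, its partner in that role, fell from 27.1 ± 6.04 CPM in the unbound fraction to 12.1 ± 0.525 CPM in IP (-1.17). Ryk, a Wnt receptor of the tyrosine kinase class, fell from 30.6 ± 3.24 CPM in the unbound fraction to 12.1 ± 1.70 CPM in IP (-1.34). Among 14 tested release and extracellular genes 2 rose and 4 fell. Wls, which carries Wnt proteins to the cell surface, fell from 10.2 ± 1.28 CPM in the unbound fraction to 2.92 ± 1.16 CPM in IP (-1.81). Reck, which helps Wnt7a and Wnt7b act on vessels, fell as well (-1.75), as did Kremen1, a partner receptor of Dickkopf proteins (-1.83). Gpc3, a glypican, rose (1.22) and so did Tpbg (0.72), but Tpbg passed in 6 of the 17 alternative fits and Gpc3 in 13.

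Among 20 intracellular relay genes 4 rose (21.1% of all genes) and 3 fell (23.2% of all genes). Gsk3a, a kinase of the complex that marks beta-catenin for destruction, rose from 87.0 ± 3.01 CPM in the unbound fraction to 170 ± 16.8 CPM in IP (0.97), and Dact1 (0.87) and the casein kinase gene Csnk1e (0.59) rose as well. Apc, a scaffold of the same complex (-0.89), and Ctnnd1 (-1.09) fell, and Daam2 fell from 80.1 ± 34.4 CPM in the unbound fraction to 7.09 ± 2.42 CPM in IP (-3.51). Ctnnb1, which encodes beta-catenin and was named after its values were seen, stood at 0.055 (adjusted p = 0.745, edgeR), and at -0.48 under pan-neuronal scaling (adjusted p = 0.0114, edgeR). Of 12 nuclear factors 4 rose, among them Bcl9 (0.88), Pygo1 (0.54) and Pygo2 (0.58), whose proteins join beta-catenin on target genes. The 5 that fell included the DNA-binding factors Tcf7 (-2.58) and Tcf7l1 (-2.63) and the co-repressor Tle1 (-0.79). Lef1, a DNA-binding LEF factor gene and also a thalamic marker, was named after its values were seen. It fell from 17.6 ± 7.37 CPM in the unbound fraction to 5.17 ± 2.35 CPM in IP (-1.77, adjusted p = 0.00968, edgeR). Tcf7l2, a further DNA-binding factor of that family and also a thalamic marker, was named after its values were seen and held 333, 448 and 256 CPM (IP) against 171, 149 and 430 CPM (unbound). Its highest unbound level was in replicate 3, and the difference of 0.47 did not pass (adjusted p = 0.406, edgeR). It rose by 1.10 without that library (adjusted p = 0.00222, edgeR), and its sign turned under pan-neuronal scaling (-0.0292) and on lane 2 alone (-0.0225).

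Of 8 tested feedback and target genes, Ccnd1, the cyclin D1 gene, rose (0.72) and Nkd1, a feedback inhibitor, fell (-1.89). Prmt2, which also rose (1.61), encodes an arginine methyltransferase. Its place on this list is no evidence that it is a target of the pathway, which was not tested. Axin2, a feedback gene much used as a readout of the pathway, was named after its values were seen. It averaged 22.6 ± 2.42 CPM in IP, against 26.5 ± 2.0 CPM in the unbound fraction (-0.23, adjusted p = 0.243, edgeR), and passed under pan-neuronal scaling (-0.76, adjusted p = 0.00304, edgeR). Scaling on pan-neuronal markers lowered the median of all genes from -0.01 to -0.54. Under it 3 of these 67 genes rose and 34 fell (852 and 7194 of all 16991 genes tested). Dact1, Csnk1e, Pygo1, Pygo2, Ccnd1, Gpc3 and Tpbg did not pass under that scaling. The lane 2 libraries alone, replicates 1 and 3, gave 3 rises and 13 falls (1297 and 2538 of all 17320 genes tested). Without unbound replicate 3, 16 of 68 tested genes rose (24.0% of all genes) and 22 fell (25.8% of all genes). Tle3 (-0.54) and Tpbg (0.61) were then lost, and Apc2, Ctnnbip1, Dkkl1, Dvl1, Nkd2, Prickle2, Ror1, Sostdc1, Tcf7l2 and Tnfrsf19 were gained.

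**Figure D5:**
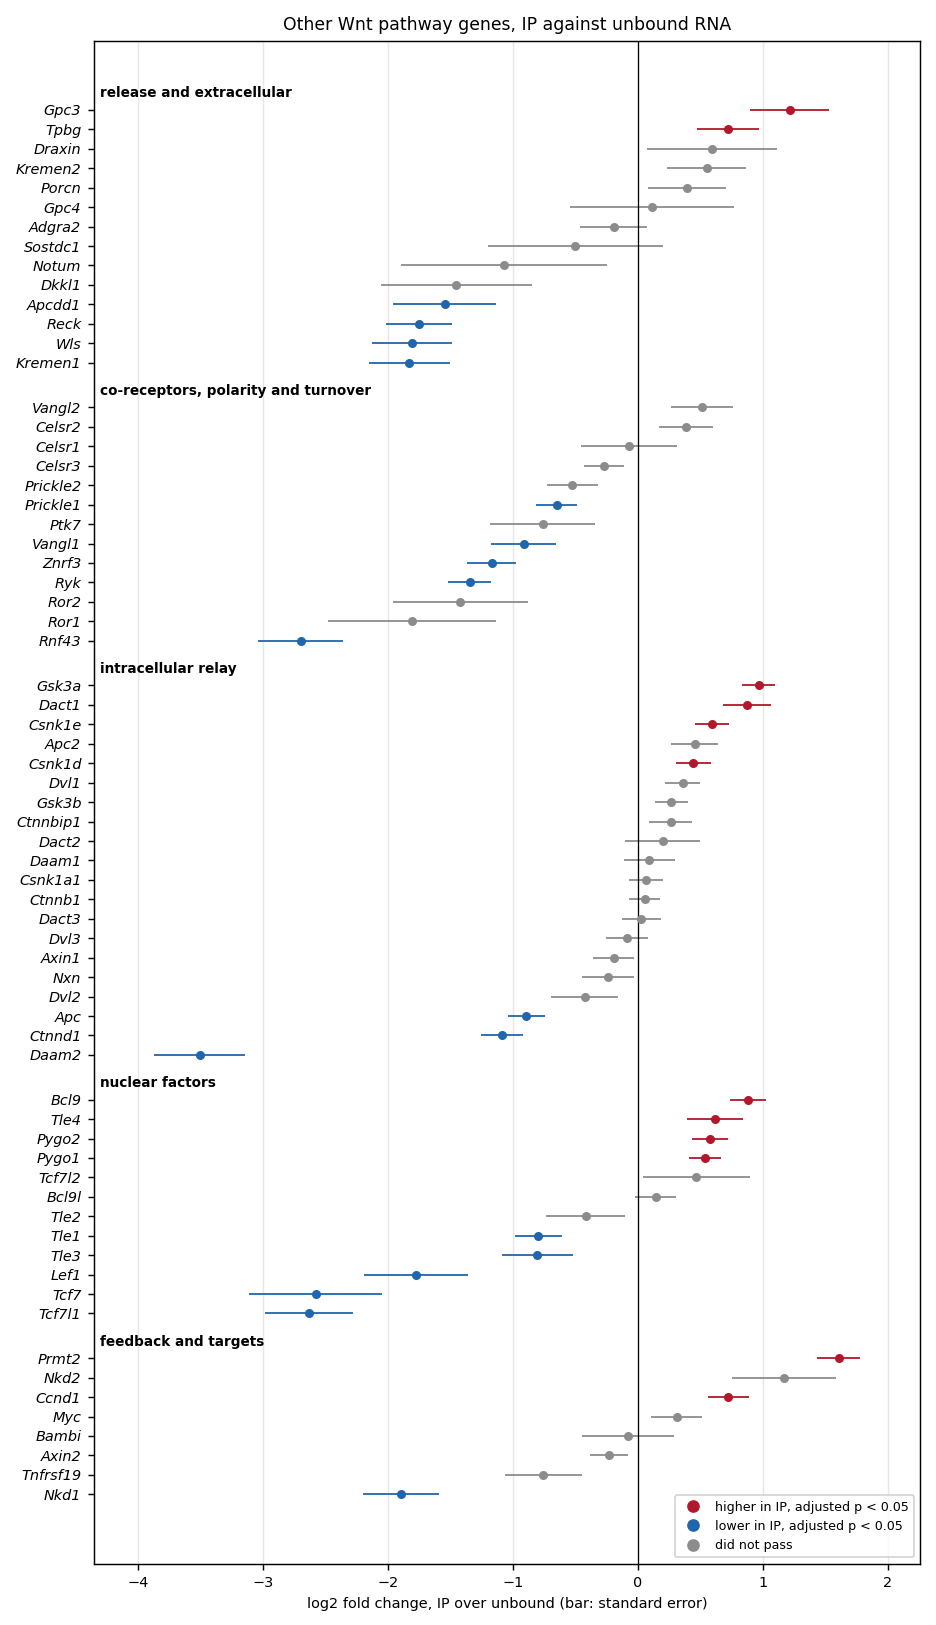
Log2 fold change of IP over unbound RNA, with its standard error, for the 67 tested genes of the 5 further Wnt pathway lists. Red and blue mark an adjusted p under 0.05: 12 genes lie higher and 18 lower in IP, with Daam2 lowest and Prmt2 highest.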

How the data were processed

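RNA-seq libraries of immunopurified (3) and unbound (3) RNA were grouped by the sample type in the labels. The authors deposited unnormalised read counts for each gene feature. The submitters' processing notes name STAR 2.0.0e, HTSeq and the mouse build mm10. The sources used here do not state the annotation, the strand setting or how overlapping genes were counted, so reads of a gene and an antisense partner cannot be told apart. Rows that name no gene were removed before scaling and testing: reads aligned to several places (43.8% to 45.0% of the reads listed in IP, 31.8% to 32.9% in unbound libraries), in no feature (7.57% to 7.998% and 12.53% to 13.5%), ambiguous (1.58% to 1.64% and 7.08% to 9.02%) and of unknown features (at most 2.9e-06%). No 2 libraries of a group were copies: chi-square per degree of freedom was 23.0 to 136. It was 27.1 between IP replicates 1 and 2, and 71.0 and 57.9 between these and IP replicate 3. Between unbound replicates 1 and 2 it was 23.0, and 126 and 136 between these and unbound replicate 3.

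Genes were tested with edgeR 4.0.16 (R 4.3.3), using TMM scaling, filterByExpr (count at least 10, total at least 15) and robust quasi-likelihood fits with group as the one term. Benjamini-Hochberg adjustment covered 16991 genes, with a threshold of 0.05. Standard errors are the size of the log2 fold change over the root of F. On simulated data for IP against unbound (16690 genes), 47 of 100 genes changed 2-fold were found and 90 of 100 changed 4-fold, with 10 false calls among 147. The genes, lists and tests were chosen with earlier results of these data known. Every one of the 48 genes is named. Of each further pathway list the 3 genes with the smallest adjusted p in each direction are named, and marker lists are given as counts and sums. The hypothalamic list was chosen after its values were seen. Floors of 3 counts per library cover counting error only.

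Alternatives were median-ratio size factors, library size alone, scaling on pan-neuronal markers, no count filter, a CPM above 1 in 3 libraries, DESeq2 1.42.0, limma-voom (limma 3.58.1), the replicate block, lane as a covariate, lane 2 alone, and libraries left out. Replicate numbers come from the titles, and replicate 2 of both groups was on lane 4, which with 1 library a group gives no test. Deviations from the group mean, compared over genes, correlated at 0.14, 0.16 and 0.21 in the same-numbered pairs, each over 0.1. The numbers were therefore taken as pairs, but in the replicate block alone. No label says so, and the main test does not use the pairing. For replicate 2 a shared origin and the shared lane cannot be told apart. Promoter windows came from RefSeq, and exon lengths and overlaps from GENCODE M21.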

Additional observations from a re-analysis of the deposited data

How the results depend on the processing

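Of the 16 called genes among the 48, 12 kept their call in each alternative that tested them, and Wnt9a, Wnt9b, Fzd10 and Wnt16 did not. Wnt9b was lost on lane 2 alone (adjusted p = 0.0760, edgeR). Under pan-neuronal scaling 852 genes were higher and 7194 lower, against 3586 and 3943. Of the 48 genes 3 were higher and 23 lower, and of the other pathway genes 3 and 34. Frzb, Fzd1, Fzd4, Lgr4, Lgr6, Sfrp4, Wnt4, Wnt5a, Wnt7a and Wnt7b were gained as lower there. The lane 2 libraries alone gave 1297 higher and 2538 lower, with 3 pathway genes higher, from fewer libraries. Without replicate 3 of both groups 6 of the 48 were higher and 15 lower, with 19 and 21 pathway genes and 4429 and 4649 of 17015 genes tested. Leaving out 1 library gave 3 to 5 of the 48 higher and 10 to 15 lower, 8 to 16 pathway genes higher and 16 to 22 lower, and 2489 to 4139 genes higher and 3263 to 4448 lower. With the replicate block 3 of the 48 were higher and 14 lower: Frzb and Wnt2 were gained, Fzd10 was lost, and no other call among the 48 changed. The block gave 15 pathway genes higher and 19 lower, and 3952 and 4017 of all 16991 genes. Signs turned for 1 called gene, Csnk1d (-0.0863 with pan-neuronal scaling), and for genes that did not pass. Under that scaling Dkk3 (-0.47), Fzd7 (-0.15), Sfrp1 (-0.22), Wnt5b (-0.0880), Ctnnb1 (-0.48) and Tcf7l2 (-0.0292) turned. Ctnnb1 (-0.0440) turned with library size alone and Tcf7l2 (-0.0225) on lane 2 alone. Dkk3 turned with library size alone (-0.0178) and without replicate 3 of both groups (-0.0262), and Lgr5 turned in the latter (0.62). Rspo4 turned with limma-voom (0.9997) and with the replicate block (0.42). With 1 library left out Dkk3 ranged from -0.27 to 0.58, Fzd1 from -0.60 to 0.00830, Lgr5 from -0.39 to 0.39, Rspo4 from -0.72 to 1.10 and Wnt5b from -0.0183 to 1.01. The cause was not tested. Depth limits genes with a few counts per library, such as Wnt16, Fzd10 and Wif1.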
